A study of Mus musculus with 2 samples.

Results

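The D cyclins (Ccnd1, Ccnd2, Ccnd3), their kinase partners (Cdk4, Cdk6) and 5 inhibitors of cyclin-dependent kinases (Cdkn1a, Cdkn1b, Cdkn2a, Cdkn2c, Cdkn2d) were followed in mouse regulatory T cells (Treg), a CD4 lineage that limits immune reactions. They were taken by gene symbol, and all 10 were found among 55536 annotated genes. The cells were primary cells of a male mouse at 9 weeks of age, with the origin given as whole organism and with no treatment or genotype in the labels. PolyA RNA was sequenced in 2 libraries, library 1 and library 2, which the labels call technical replicates of 1 biological replicate. There was no second condition, so each level is a description, and its SD (n = 2 technical libraries throughout) says nothing of other mice.

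D-type cyclins bind CDK4 or CDK6 when a growth signal arrives, and the kinase then phosphorylates the retinoblastoma protein, which releases E2F transcription factors for the start of DNA synthesis. The INK4 proteins, here from Cdkn2a, Cdkn2c and Cdkn2d, bind CDK4 and CDK6 and keep D cyclins off them. The CIP/KIP proteins p21 (Cdkn1a) and p27 (Cdkn1b) act on cyclin-kinase complexes more broadly, and p27 is known in T cells as a brake that is removed after activation. Lymphocytes are known to use mainly cyclins D2 and D3 and little cyclin D1.

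The sequences that bear on the results are those around alternative transcript starts and around 1 alternative splice junction. They are written 5′ to 3′. Ccnd3 has 2 start regions 88416 bases apart on chromosome 17, and both gave transcripts in these cells. The RefSeq sequence (GRCm38.p6) before each is shown in lower case, with copies of the GC box GGGCGG, a motif bound by Sp1-family factors, in capitals on either strand. The upstream window is chr17:47504801-47505050 and the downstream window chr17:47593217-47593435, both on the plus strand.
Ccnd3 upstream start: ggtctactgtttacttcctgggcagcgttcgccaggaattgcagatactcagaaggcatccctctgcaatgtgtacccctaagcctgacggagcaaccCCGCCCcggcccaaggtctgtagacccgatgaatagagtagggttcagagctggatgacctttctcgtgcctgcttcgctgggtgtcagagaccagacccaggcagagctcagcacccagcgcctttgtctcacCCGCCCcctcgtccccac
Ccnd3 downstream start: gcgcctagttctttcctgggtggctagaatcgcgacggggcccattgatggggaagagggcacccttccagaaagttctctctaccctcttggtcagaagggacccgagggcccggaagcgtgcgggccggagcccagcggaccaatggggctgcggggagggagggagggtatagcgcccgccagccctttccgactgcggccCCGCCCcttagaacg
The GC box occurred 2 times in the upstream window and 1 time in the downstream one. Of 32851 RefSeq promoter windows of 250 bases, 32.7% hold it, and of the 12 windows that matched 8 members, 8 did.

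For Cdk4 the window chr10:127063285-127063533 (plus strand) is shown because it holds 4 copies of the E-box CACGTG, the motif that the MYC protein binds. At least 1 copy was found in 6.02% of all windows and in 2 of the members' 12 windows. The share of windows with 4 copies was not computed. The E-boxes are in capitals.
Cdk4 start: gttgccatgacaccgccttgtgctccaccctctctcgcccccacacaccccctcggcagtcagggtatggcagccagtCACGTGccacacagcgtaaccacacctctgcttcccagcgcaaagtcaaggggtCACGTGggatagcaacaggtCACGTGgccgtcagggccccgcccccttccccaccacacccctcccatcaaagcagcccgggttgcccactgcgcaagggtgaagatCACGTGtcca
Myc itself was measured at 237 and 202 TPM in libraries 1 and 2. TPM is a level that is corrected for transcript length and scaled to 1 total in every library. A match is only a run of letters, and binding was not measured.

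Cdkn1a also has 2 start regions, chr17:29090729-29090975 and chr17:29093519-29093768 (plus strand). In the upstream one the capitals mark a pair of p53 half-site cores (CATG, then 6 bases of any kind, then CATG), which 0.490% of all windows hold. In the downstream one they mark the GC box, present 2 times.
Cdkn1a upstream start: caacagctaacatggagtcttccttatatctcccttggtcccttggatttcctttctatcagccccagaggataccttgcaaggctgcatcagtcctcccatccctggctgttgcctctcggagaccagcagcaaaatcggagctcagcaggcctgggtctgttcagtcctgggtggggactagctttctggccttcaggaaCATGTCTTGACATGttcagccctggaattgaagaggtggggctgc
Cdkn1a downstream start: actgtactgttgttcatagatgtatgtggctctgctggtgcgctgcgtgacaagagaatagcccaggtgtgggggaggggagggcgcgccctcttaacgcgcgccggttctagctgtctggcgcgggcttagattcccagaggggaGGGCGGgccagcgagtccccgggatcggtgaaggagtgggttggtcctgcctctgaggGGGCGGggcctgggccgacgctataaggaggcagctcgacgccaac
The forkhead motif GTAAACA, searched on both strands like the others, occurred in 1 of the 12 windows, against 3.17% of all windows. The E2F motif TTTGGCGC occurred in 0 of the 12, against 0.417%. No match of one motif overlapped a match of another in the members' windows.

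Cdkn2d is shown at the end of its first coding exon on chromosome 9 (GRCm38, minus strand), because its main transcripts part there. The 18 bases in lower case are shared, from 21290809 to 21290826, and the 12 bases in capitals follow the junction.
Cdkn2d-201: ggcaagacggccttgcagGTGCCCTCTTGA
Cdkn2d-203: ggcaagacggccttgcagGTCATGATGTTT
In Cdkn2d-201 the bases after the junction come from an extra exon of 52 bases (21290425 to 21290476), and the last triplet shown, TGA, is its annotated stop codon, which ends the coding sequence after 50 codons. In Cdkn2d-203 they come from the last exon, and the coding sequence runs on to 166 codons, the p19Ink4d protein.

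The depth over annotated genes was 34697128 estimated counts for library 1, with 32049199 for library 2, and 9576557 and 8937887 whole-number counts in a second count table on an older annotation (GENCODE M4). A gene was called detected when both libraries had at least 1 TPM, which held for 23.9% of annotated genes and for 48.0% of protein-coding genes. The labelled cell type was checked by markers. The Treg list (Foxp3, Il2ra, Ctla4, Ikzf2, Tnfrsf18) was detected in 5 of 5, with Foxp3, its defining factor, at 108 and 111 TPM, and the T cell list in 5 of 5. B cell markers were detected in 4 of 5 with a summed 45.8 and 40.5 TPM (Pax5 at 0.02 and 0.19 TPM), macrophage markers in 3 of 5 with 24.1 and 17.7 TPM, and red cell markers in 5 of 5 with 383 and 351 TPM. Markers of stroma and endothelium were detected in 0 of 6, with sums of 0.68 and 0.50 TPM. What these other cells added to the members' levels was not tested.

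Of the members, 7 of 10 were detected: Ccnd2, Cdk4, Ccnd3, Cdkn2d, Cdk6, Cdkn1b and Cdkn2c, in that order of gene-level TPM. The median of all detected protein-coding genes was 31.1 TPM, so by their means 5 members lay above it, and Cdkn1b and Cdkn2c below. Neighbours in the order did not overlap between the libraries, and the order was the same in each library. In a bulk sample, fewer cells with a transcript and less of it per cell cannot be told apart.

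**Figure D1:**
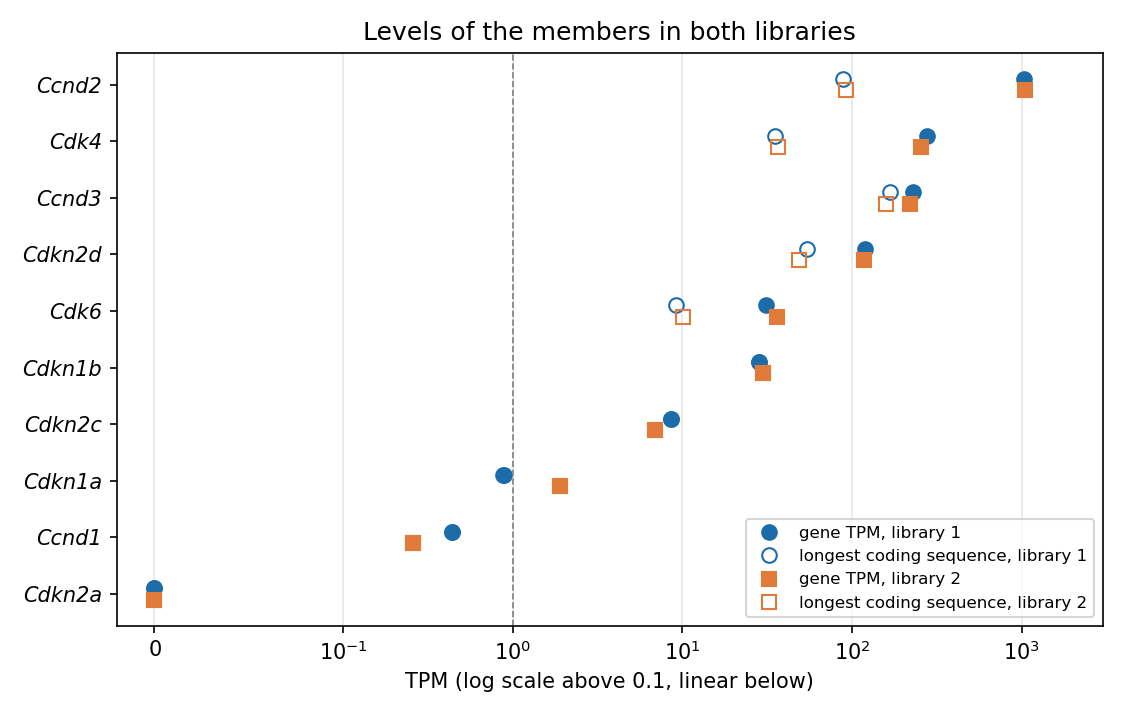
TPM of each member (log scale above 0.1, linear below) in library 1 (circles) and library 2 (squares). Filled symbols sum all transcripts of the gene and open ones sum those with its longest coding sequence; where no open symbol shows, it lies under the filled one, and the dashed line is 1 TPM. Ccnd2 leads by gene TPM at 1028 and 1044, while Ccnd3 leads by the longest coding sequence at 167 and 158.

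Among the cyclins, Ccnd2 had 1028 TPM in library 1 and 1044 TPM in library 2, a mean of 1036 ± 11.2 TPM at percentile 99.2 of detected protein-coding genes. It lies on chromosome 6 from 127125162 to 127152193 (minus strand). Ccnd3, on chromosome 17 from 47505051 to 47599691 (plus strand), had 229.6 and 221 TPM, at percentile 93.6. Both cyclins were thus far above the median gene in each library. Ccnd1, on chromosome 7 from 144929931 to 144939925 (minus strand), had 0.44 and 0.26 TPM, from 34.2 and 19.5 estimated counts. All of these fell to Ccnd1-201, while Ccnd1-202 and Ccnd1-203 were at 0 counts. The M4 table gave the gene 6 and 0 counts. Its exons share 1100 bases with LTO1 on the opposite strand, which had 22.2 and 19.7 TPM, and without the strand of the reads these cannot be told apart. Cyclin D1 RNA was therefore under the detection minimum in both libraries. Together the D cyclins summed to 1258 and 1265 TPM.

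At gene level Ccnd2 was 4.48 times Ccnd3 in library 1 and 4.73 times in library 2. That ratio of TPM did not hold among transcripts with the full reading frame. The transcript with the longest Ccnd2 coding sequence, Ccnd2-201 (coding length 867 bases), had 88.3 and 92.2 TPM, which is 8.71 ± 0.170% of the gene's TPM but 50.4 ± 0.632% of its estimated counts. The 5 Ccnd3 transcripts with its longest coding sequence (876 bases) had 167 and 158 TPM, or 72.1 ± 0.900% of the gene's TPM. On this measure Ccnd3 was 1.89 times Ccnd2 in library 1 and 1.71 times in library 2, so the order of the cyclins turned round in both libraries. Counts per kilobase of merged exons, which use no division among transcripts, put Ccnd2 2.56 and 2.77 times above Ccnd3. M4 counts per kilobase of the deposited gene length put Ccnd2 2.31 times above Ccnd3. That length is weighted by the TPM of the gene's transcripts, so the M4 measure also rests on the division among them. Before division by length, the M4 counts were 1874 and 1858 for Ccnd2 and 1313 and 1250 for Ccnd3.

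Most of the remaining Ccnd2 TPM sat on short transcripts. Ccnd2-206 (627 bases, annotated with an incomplete coding sequence) had 459 and 480.3 TPM, 45.3 ± 0.929% of the gene's TPM and 24.2% of its counts. Of its bases 595 lie in exons of Ccnd2-201 and 32 outside. Ccnd2-207 (415 bases, a processed transcript with no coding sequence) had 330.2 and 319 TPM, 31.3% of the TPM and 10.6% of the counts, with 309 bases inside those exons and 106 outside. Ccnd2-206 and Ccnd2-207 thus held most of the gene's TPM on sequence that is largely shared with Ccnd2-201. The deposited gene length of Ccnd2, which is its transcript lengths weighted by their TPM, was 1129 and 1139 bases, and its merged exons are 8.30 times as long as the mean of these. At its 5′ end Ccnd2 shares 368 exonic bases with the antisense gene 9330179D12Rik, which had 2.03 and 1.79 TPM. The deposited posterior mean of Ccnd2-206 was 427 TPM in library 1, between interval bounds of 413 and 442, and 446 TPM in library 2, between 431 and 461. The TPM of Ccnd2-206 given above, 459 and 480.3, lay over the upper bound in each library. The bounds thus describe the posterior mean and do not enclose that TPM.

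**Figure D2:**
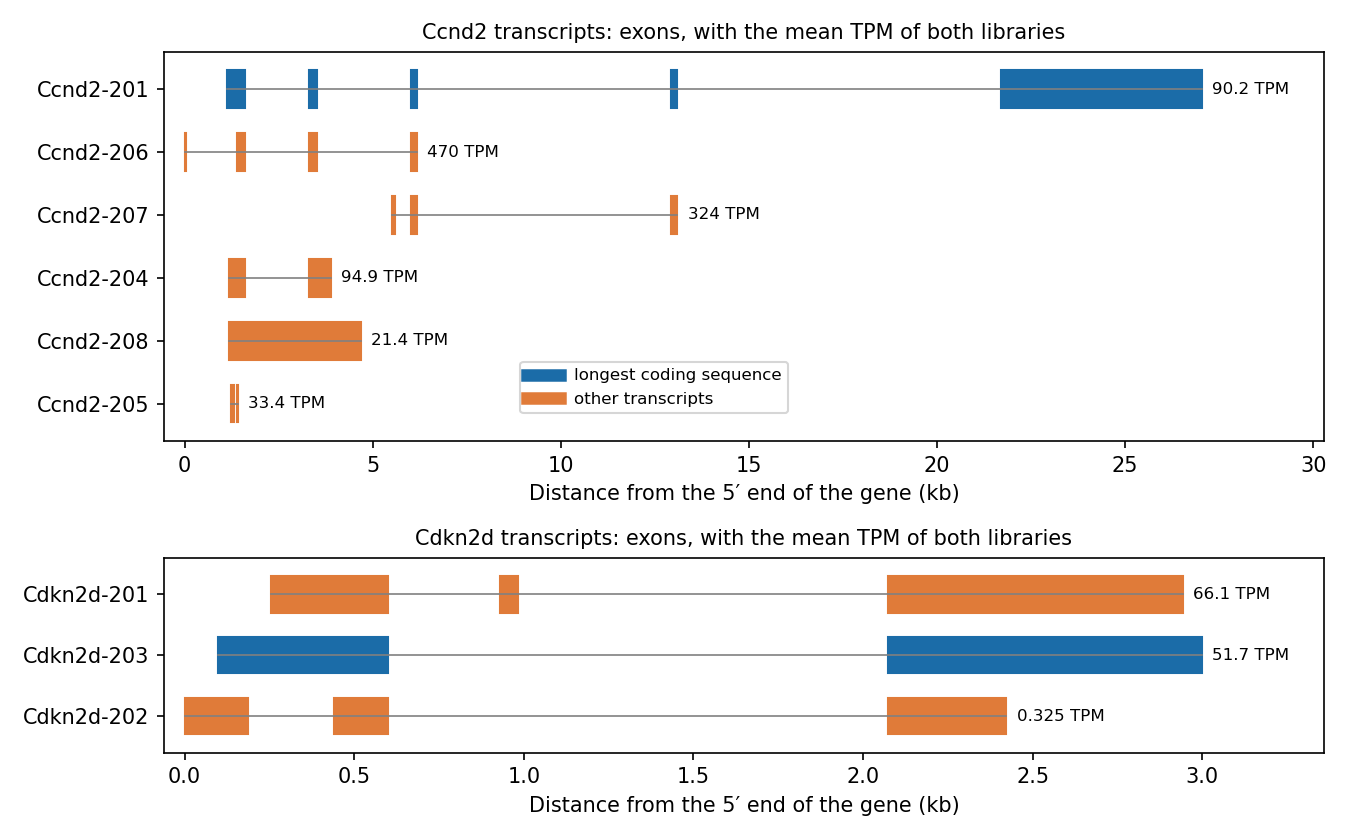
Exons (boxes) of Ccnd2 and Cdkn2d transcripts by distance from the gene's 5′ end in kilobases, to scale, with the mean TPM of both libraries beside each. Blue marks the longest coding sequence and orange other transcripts: Ccnd2-206 ends before the long last exon of Ccnd2-201, and Cdkn2d-201 has an extra exon of 52 bases that Cdkn2d-203 lacks.

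Ccnd3 drew its level from both of its starts. Transcripts that begin within 500 bases of the upstream start had 144 and 148 TPM, 65.0 ± 3.13% of the gene's TPM. Those at the downstream start, which lies 188 bases before the start codon shared by the full-length forms, had 84.6 and 71.5 TPM, 34.6 ± 3.18%. Over all transcripts the upstream start was thus the larger one in both libraries, by 1.70 and 2.08 times. Its sum includes retained-intron forms with no coding sequence, such as Ccnd3-203. These ratios therefore do not compare the starts over full-length forms alone. The highest single transcript, Ccnd3-205, came from the downstream start and had 83.1 and 70.1 TPM. Of the upstream forms, Ccnd3-201 had 40.8 and 34.2 TPM and Ccnd3-215 had 23.2 and 32.5 TPM, and both encode the same protein as Ccnd3-205. Division among these near-identical forms was loose: the deposited interval of Ccnd3-215 ran from 5.43 to 33.1 TPM in library 1 and from 13.8 to 34.9 TPM in library 2, and these overlap. Ccnd3-203, a retained-intron form with no coding sequence, had 38.0 and 34.7 TPM, and retained-intron forms together took 24.4% of the gene's TPM. The 3′ end of Ccnd3 shares 361 exonic bases with Bysl on the opposite strand, which had 15.1 and 14.5 TPM.

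Of the kinases, Cdk4 had 279 and 255 TPM (267 ± 16.7 TPM, percentile 95.0) and Cdk6 31.1 and 36.2 TPM (33.6 ± 3.56 TPM, percentile 52.6). Cdk4 lies on chromosome 10 from 127063534 to 127067920 and Cdk6 on chromosome 5 from 3341485 to 3531008, both on the plus strand. Cdk4 was 8.96 times Cdk6 in library 1 and 7.06 times in library 2. Over transcripts with the longest coding sequence the gap was 3.80 and 3.63 times, from 35.1 and 36.5 TPM for Cdk4-201 (909 bases) against 9.24 and 10.1 TPM for Cdk6-201 and Cdk6-202 (978 bases). Cdk4 was the more abundant kinase RNA on either measure, in both libraries.

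The leading Cdk4 transcript by TPM was Cdk4-209, a retained-intron form of 468 bases, with 115 and 99.0 TPM (40.0 ± 1.77% of the gene's TPM, 17.2% of its counts). Of its bases 443 lie in exons of Cdk4-201 and 25 outside. Cdk4-205, with an incomplete coding sequence, had 53.1 and 61.7 TPM, and the retained-intron form Cdk4-207 had 30.1 and 31.0 TPM. All retained-intron forms together took 58.9% of the gene's TPM in library 1 and 53.2% in library 2, against 13.4 ± 1.21% for Cdk4-201. Most Cdk4 TPM was therefore assigned to forms without the full reading frame, a division that rests on few distinguishing bases for Cdk4-209. The 3′ end of Cdk4 overlaps Tspan31 on the opposite strand by 641 exonic bases, and Tspan31 had 53.6 and 52.5 TPM.

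For Cdk6 the short Cdk6-203 (697 bases, incomplete coding sequence) had 11.8 and 13.7 TPM, 37.8% of the gene's TPM but 11.4% of its counts. Cdk6-205 (425 bases, also incomplete) had 10.01 and 11.1 TPM. Cdk6-202, at 11525 bases the longest transcript, had only 4.05 and 3.94 TPM (11.96% of TPM) but 63.5% of the counts, and Cdk6-201 had 5.19 and 6.11 TPM. Reads of Cdk6 thus lay mostly on the full-length forms, 82.4 ± 1.69% by count, while its TPM lay mostly on the short ones. The antisense gene Gm17590, which shares 368 exonic bases with Cdk6, had 2.34 and 2.44 TPM.

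**Figure D3:**
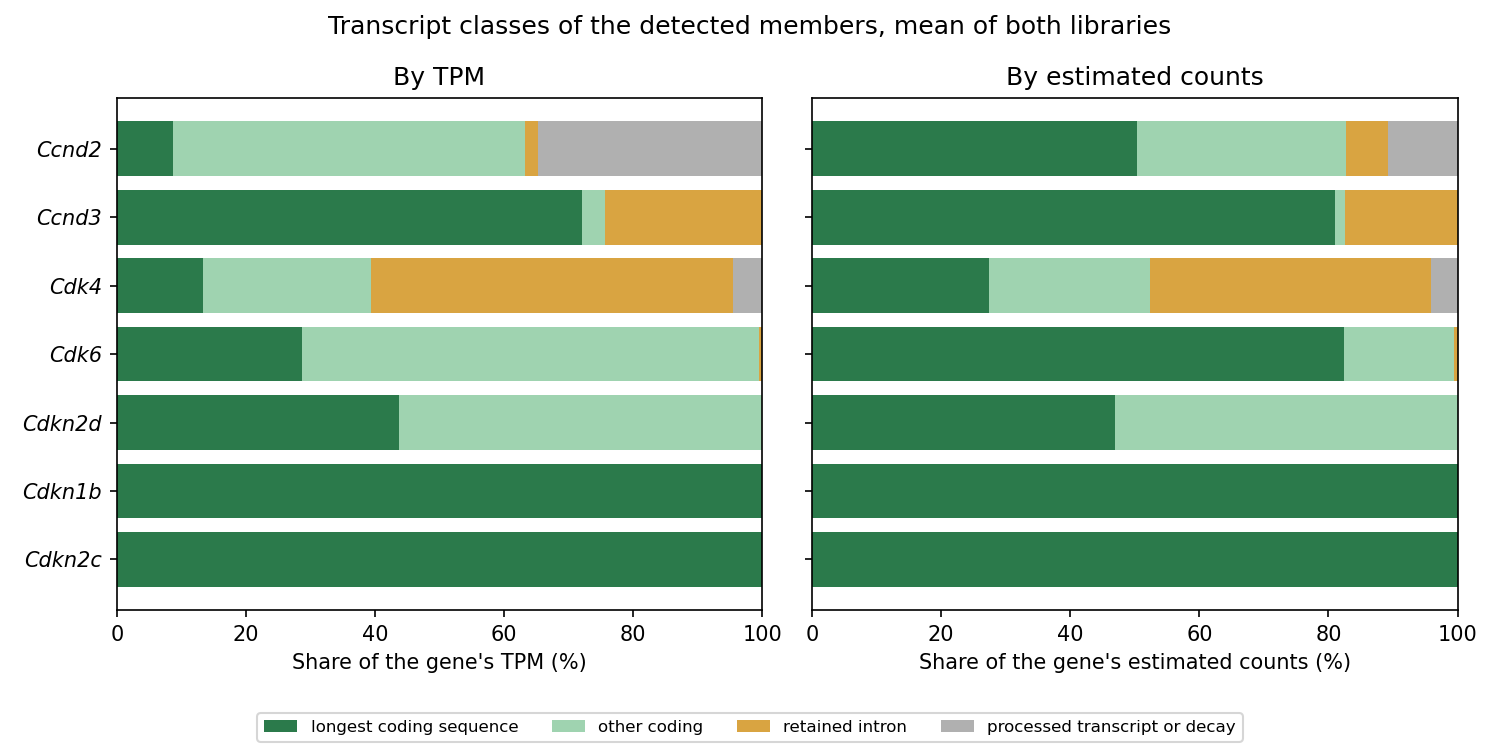
Share of each detected member's TPM (left) and estimated counts (right), in percent, by transcript class, as the mean of both libraries. The longest coding sequence holds 8.71% of the TPM but 50.4% of the counts of Ccnd2, and all of Cdkn1b and Cdkn2c on both scales.

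Among the INK4 inhibitors, Cdkn2d (chromosome 9, 21288410 to 21291407, minus strand) was the highest, with 119 and 117 TPM (118 ± 1.46 TPM, percentile 85.7). Cdkn2c, which encodes p18Ink4c, lies on chromosome 4 from 109660876 to 109667189 (minus strand) and had 8.59 and 6.88 TPM (7.74 ± 1.21 TPM, percentile 20.0). Cdkn2d was 13.9 times Cdkn2c in library 1 and 17.02 times in library 2. The INK4 sum was 128 and 124 TPM, against 310 and 291 TPM for Cdk4 and Cdk6 together, a ratio of 0.412 and 0.425. This ratio turned round to 1.42 and 1.20 over transcripts with the longest coding sequence, and to 1.18 and 1.16 in counts per kilobase of merged exons. Merged exons were 1.18 times the mean deposited gene length for Cdkn2d, 2.02 for Cdkn2c, 3.16 for Cdk4 and 6.34 for Cdk6. The merged-exon measure thus lowers the kinases more than these inhibitors. How much of the turn came from these lengths was not tested. In M4 counts per kilobase of the deposited gene length the INK4 ratio did not turn round, with a mean of 0.385. That length is weighted by the TPM of each gene's transcripts. The M4 measure is thus no check that is independent of the division among transcripts.

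The splice forms of Cdkn2d shown above divided its reads about evenly. Cdkn2d-201, with the extra exon and the coding sequence of 50 codons, had 64.7 and 67.4 TPM (55.9 ± 2.32% of TPM, 52.99% of counts). Cdkn2d-203, with the 166 codons of p19Ink4d, had 54.5 and 49.02 TPM (43.8 ± 2.71%). The deposited intervals of the posterior mean overlapped: from 50.1 to 68.4 TPM for Cdkn2d-201 and from 43.1 to 59.4 TPM for Cdkn2d-203 in library 1, and from 52.4 to 69.9 TPM against 38.9 to 54.3 TPM in library 2. Which form was higher is thus not settled at the precision of the deposited estimates, although Cdkn2d-201 had the higher TPM in both libraries. Cdkn2c was carried mostly by Cdkn2c-201, which starts at 109665372 and had 7.14 and 5.78 TPM, 83.6 ± 0.631% of the gene. Cdkn2c-202, from a start farther upstream, had 1.45 and 1.10 TPM, and both encode the same protein.

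Cdkn2a (chromosome 4, 89274471 to 89294653, minus strand) was at 0 counts in both libraries and in both count tables. Its transcripts encode unrelated proteins in different frames, p16Ink4a (Cdkn2a-201) and p19Arf (Cdkn2a-202), the second of which acts on MDM2 and so on p53. Each was at 0 TPM in each library. A count of 0 allows up to 3 counts, or 0.172 TPM in library 1 and 0.177 TPM in library 2, with counting error alone considered. Cdkn2a RNA was therefore not detectable at this depth.

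Of the CIP/KIP inhibitors, Cdkn1b (chromosome 6, 134920401 to 134925513, plus strand) had 28.5 and 29.98 TPM (29.3 ± 1.03 TPM, percentile 48.3). All 3 of its annotated transcripts carry the same coding sequence of 591 bases, so its level is wholly that of the full reading frame. Cdkn1b-201 (2393 bases) had 15.7 and 19.5 TPM and Cdkn1b-202 (4552 bases) had 12.8 and 9.84 TPM, with Cdkn1b-202 taking 54.8% of the counts. Cdkn1a (chromosome 17, 29090976 to 29100727, plus strand) had 0.88 TPM in library 1 and 1.90 TPM in library 2, from 33 and 57 estimated counts. It thus passed the detection minimum in library 2 alone. Its downstream start gave 30.2 and 43.2 of those counts, and the upstream start with the p53 cores gave 0 and 13.8. These were the counts of Cdkn1a-201 and Cdkn1a-202, while Cdkn1a-203 had 2.81 and 0, and Cdkn1a-204 and Cdkn1a-205 had 0 in both libraries. Cdkn1b was 32.4 times Cdkn1a in library 1 and 15.8 times in library 2.

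When the members were ordered by transcripts with the longest coding sequence, the order was Ccnd3, Ccnd2, Cdkn2d, Cdk4, Cdkn1b, Cdk6 and Cdkn2c, and only 4 of 10 members kept their place. By counts per kilobase of merged exons it was Ccnd2, Cdkn2d, Cdk4, Ccnd3, Cdkn1b, Cdk6 and Cdkn2c. Cdkn1b stood above Cdk6 on both of these measures and below it by gene TPM. The least expressed members, Cdkn1a, Ccnd1 and Cdkn2a, stayed last in every order computed.

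The libraries were compared with each other as a check on technical noise. By an exact two-sided binomial test on counts, with Benjamini-Hochberg adjustment over 18746 genes, 3 of the 9 members tested differed between libraries at an adjusted p of 0.05, against 36.5% of all genes tested. All 3 were higher in library 2, a direction called for 17.3% of genes. They were Ccnd2 (log2 ratio of library 1 over library 2 of -0.11, adjusted p = 1.93e-14 by the exact binomial test), Cdk6 (-0.14, adjusted p = 0.0281) and Cdkn1a (-0.89, adjusted p = 0.0146). Past the 1.5-fold rule, met by 23.6% of genes, were 2 members, Cdkn1a and Ccnd1 (0.64, adjusted p = 0.245), each with under 100 summed counts. The remaining members lay between -0.04 and 0.26 on the log2 scale. The median size of the log2 ratio was 0.11 over the 9 members and 0.21 over all genes tested. These tests cover counting error between the libraries only. The alternative given next uses a dispersion that was estimated from the same libraries it compares. It therefore cannot decide whether a member differs between them. With edgeR's exact test, which adds a common dispersion (coefficient of variation 15.1%), 0 members were called at an adjusted p of 0.05 and 0 had an unadjusted p under 0.05, against 2.98% of genes called. The M4 counts called 0 of 8 members tested, against 14.3% of genes, and 2 members had an unadjusted p under 0.05.

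**Figure D4:**
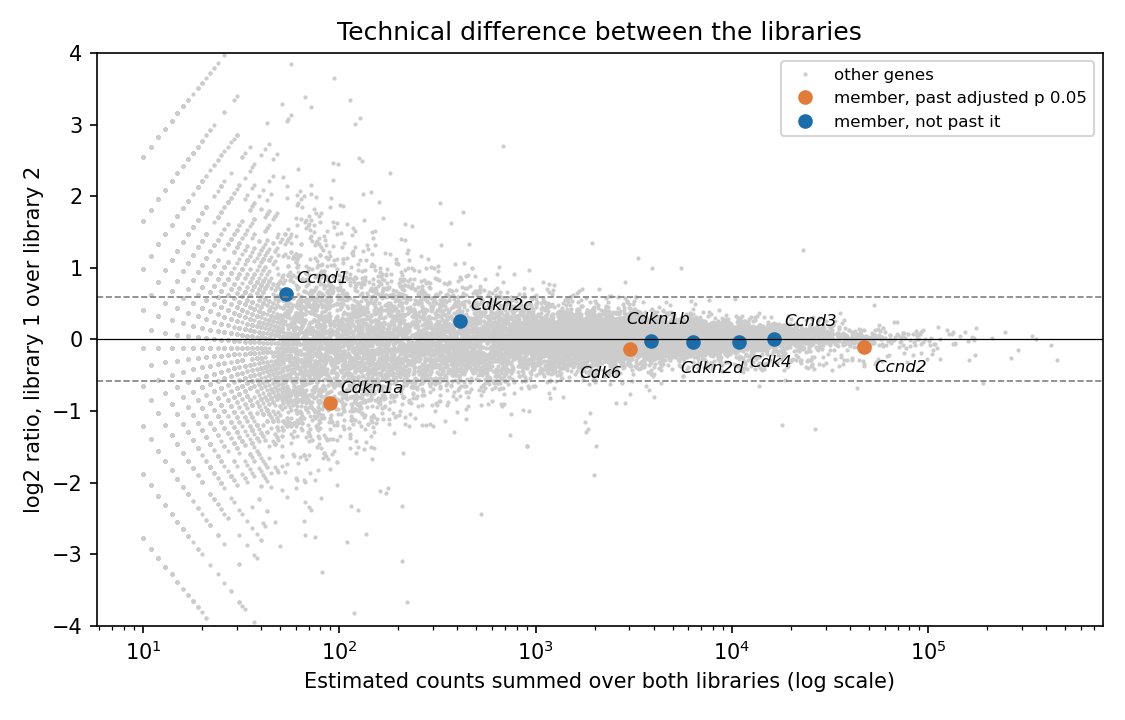
Log2 ratio of library 1 over library 2 for each gene against its estimated counts summed over both libraries (log scale). Members are coloured by whether they passed an adjusted p of 0.05 in the exact binomial test, dashed lines mark 1.5-fold, and genes beyond the vertical axis are not drawn. Ccnd2 and Cdk6 were called at ratios of -0.11 and -0.14, inside the 1.5-fold lines, while Cdkn1a at -0.89 lies outside.

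The other genes of the pathway were taken from 8 lists with 53 genes, of which 50 were detected. The median of log2(TPM + 1) was 4.89 over all 53 genes, detected or not. It was 5.003 over protein-coding genes that were detected, so the 2 sets were not filtered alike. Of the inhibitors outside the members, Cdkn1c, which encodes p57, had 6.15 and 5.27 TPM, and Cdkn2b, the neighbour of Cdkn2a that encodes p15Ink4b, had 0.39 and 0.18 TPM. So only 1 of 2 was detected there. The pocket proteins, the substrates of CDK4 and CDK6, were detected in 3 of 3, with Rb1 at 91.7 and 84.7 TPM and Rbl2 at 101 and 84.3 TPM. Of E2F and DP factors 8 of 10 were detected. The repressor E2f4, a partner of the pocket proteins, was the highest at 140.5 and 136 TPM, and the activator E2f1 had 2.36 and 2.45 TPM. E2f7 and E2f8 did not reach the minimum in both libraries.

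Cyclins and kinases that act after the D cyclins were detected in 7 of 7, with a median of 4.90 TPM. Ccne1, the first of them to act, had 8.32 and 8.16 TPM, and Ccnd3 was 27.6 and 27.1 times as high by gene TPM. Cdk2, its kinase, had 35.2 and 35.5 TPM, and Cdk4 was 7.93 and 7.19 times as high by gene TPM. Cdk4-201 alone, with the longest Cdk4 coding sequence, had 35.1 and 36.5 TPM, close to the whole of Cdk2. No division by transcript was made for Cdk2. Genes of S phase and mitosis were detected in 12 of 12, with a median of 45.01 TPM, from Pcna at 120.4 and 123 TPM to Mki67 at 2.96 and 6.31 TPM. The subunits of the kinase that activates CDK4 and CDK6 (Cdk7, Ccnh, Mnat1) were detected in 3 of 3. Genes for turnover of D cyclins and p27 were detected in 9 of 9, among them Ambra1, which directs D cyclins to degradation, at 41.0 and 40.0 TPM, and Skp2, which does so for p27, at 4.68 and 2.95 TPM. The upstream regulators were detected in 7 of 7, with Trp53, the activator of Cdkn1a, at 200.1 and 196 TPM and Foxo1, an activator of Cdkn1b, at 115 and 109 TPM.

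**Figure D5:**
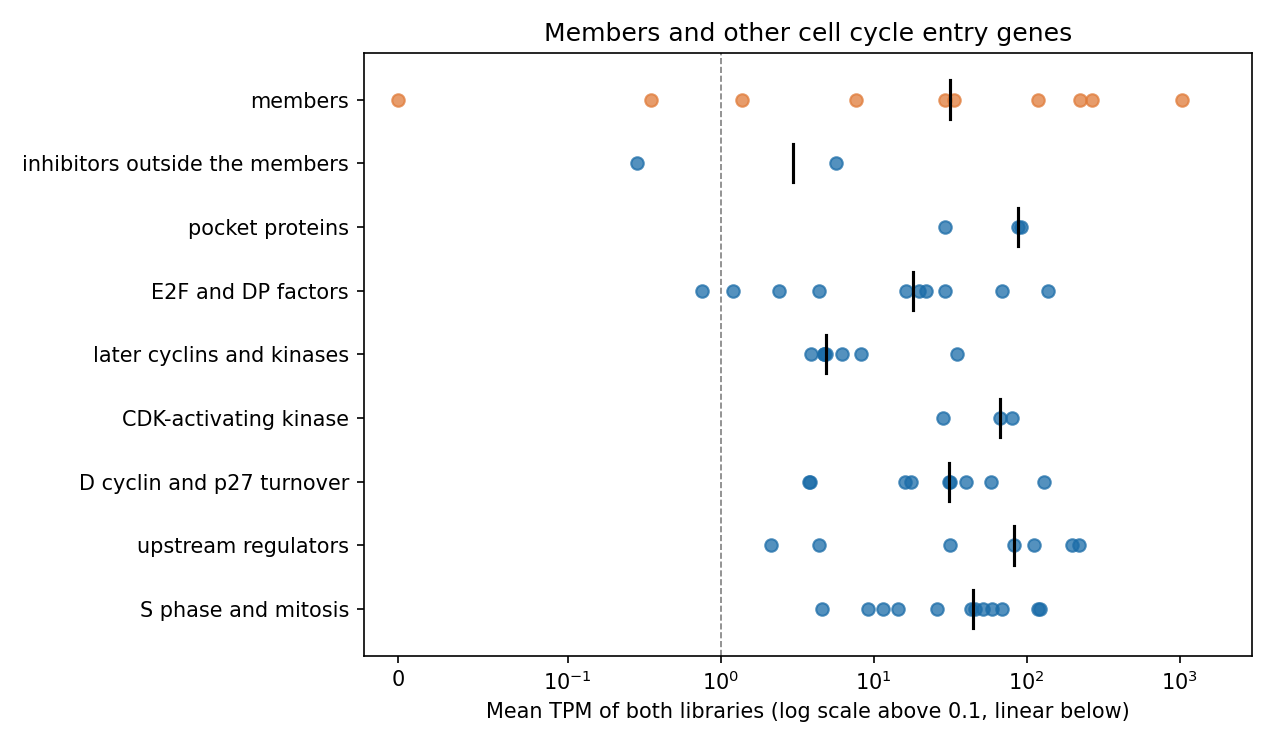
Mean TPM of both libraries (log scale above 0.1, linear below) for each member (orange) and each gene of the 8 pathway lists (blue), with a black bar at each list's median and a dashed line at 1 TPM. Later cyclins and kinases have a median of 4.90 TPM, and Ccnd2 at 1036 TPM by gene lies above every gene of the lists. Its transcript with the longest coding sequence, Ccnd2-201, had a mean of 90.25 TPM, which is below list genes such as Myc at 219 TPM.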

How the data were processed

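The authors deposited, per the labels, mm10 tables for 2 polyA RNA-seq libraries. Per the file headers, the gene and transcript tables (GENCODE M21) hold estimated counts (reads that fit several features are split by a model), TPM, FPKM, posterior mean TPM with interval bounds of unstated level, and transcript shares in percent. A further deposited table holds whole-number counts per gene (GENCODE M4). Aligner, quantifier, strandedness and sorting are not given in the sources used. Rows that name no gene (0.197% and 0.212% of counts) were left out. Effective length was length less 49 bases in every row checked, so short transcripts get high TPM per read.

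Transcript shares, start regions and coding lengths were computed from M21 on GRCm38, and promoters and motifs came from RefSeq (GRCm38.p6). Libraries were compared on rounded estimated counts with TMM factors (edgeR 4.0.16, R 4.3.3) by an exact binomial test, for genes with 10 or more counts over both libraries. With 1 library a side, edgeR's quasi-likelihood fit could not be run. DESeq2 1.42.0 size factors were an alternative. Log2 ratios had a prior count of 0.5, and lists a pseudocount of 1. The procedure was tried on simulated data, where the binomial test met counting error only. That trial says nothing of wider differences between libraries. Counting intervals and floors cover counting error only. Members, lists and tests were chosen with earlier results of these data known. Named were all members, each detected member's leading transcript, others with at least 10% of its TPM, every transcript of members not detected, and overlapping genes or pseudogenes at 1 TPM or more. The full-frame and merged-exon measures were added after the data were seen. The Ccnd3 start regions, Cdkn2d splice junction and motifs were likewise chosen after values were seen.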

Additional observations from a re-analysis of the deposited data

How the results depend on the processing

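Detection of the members ranged from 7 to 8 of 10 over the minimum of 0.5 or 5 TPM, FPKM, posterior mean TPM, M4 counts and each library alone. The Ccnd2 to Ccnd3 ratio, 4.60 in TPM, ranged from 4.48 to 4.73 with 1 library left out, was 2.31 in M4 counts per kilobase and 2.67 per kilobase of merged exons, and reversed to 0.556 over transcripts with the longest coding sequence. The ratio of INK4 inhibitors to Cdk4 and Cdk6, 0.419 in TPM, was 0.385 in M4 counts per kilobase. It reversed to 1.17 per kilobase of merged exons and to 1.31 over transcripts with the longest coding sequence. These last 2 measures, and all alternatives for the INK4 ratio, were chosen after seeing the data. The gene lengths used with M4 counts are weighted by transcript TPM, so the M4 ratios also rest on the division among transcripts. The 3 members that differed between libraries became 0 with edgeR's exact test (0 at an unadjusted p under 0.05) and 0 with M4 counts (2 at an unadjusted p under 0.05; 14.3% of genes called), and stayed 3 with library totals, DESeq2 size factors or no count filter. The dispersion in edgeR's test came from the same libraries that it compared, so that result decides nothing about the members. The Ccnd2-206 share, 45.3% of TPM, was 44.7 to 46.0% with 1 library left out, 24.2% by counts, and 8.71% for the longest coding transcript in its place. The highest transcript of Cdkn2a was 0.055 TPM by posterior mean and 0 with either library left out. Detected list genes numbered 50 to 51 with 1 library left out. Of the members' levels, 10 of 10 stayed within 1 SD in FPKM rescaled to a fixed total. That measure is nearly TPM by construction, so it was no independent check. Under posterior mean TPM 6 levels moved (for detected members to between 0.932 and 0.952 of the TPM), and under M4 counts 8 did (0.383 to 2.38). By counts in place of TPM, the other 6 leading shares moved by more than 1 SD, and the leading transcript differed in 4 of 7 detected members. The cause of these shifts was not tested. No paired analysis was possible because there is 1 group. Depth limits Ccnd1, Cdkn1a and Cdkn2a most.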

Other observations

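The ratio of M4 counts to M21 estimated counts differed between members. For Ccnd2 the M4 counts of 1874 and 1858 were 7.98% and 7.95% of the estimated counts in libraries 1 and 2, for Ccnd3 15.4% and 15.9%, for Cdk4 29.2% and 30.2%, and for Cdkn2c 51.7% and 46.1%. Ccnd1, with 6 and 0 M4 counts, had 17.5% and 0%. Mki67 had 2.96 and 6.31 TPM from 627 and 746 estimated counts, so its TPM differed far more between the libraries than its counts.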
